A study of Mus musculus with 135 samples.

Results

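The genes described are 10 homeobox genes of the Hoxa and Hoxb clusters, Hoxa3, Hoxa5, Hoxa7, Hoxa9, Hoxa10, Hoxb2, Hoxb3, Hoxb4, Hoxb5 and Hoxb6. They were taken by name, and all 10 have a row among the 15181 genes of the read count table. Single haematopoietic stem cells (HSCs) were sorted from bone marrow as lineage-negative, Sca-1+, c-Kit+, CD150+ and CD48- cells. The donors were a young mouse of 2–3 months and an old mouse of 20–25 months, both C57BL/6 and both carrying a Vwf-eGFP reporter, a bacterial artificial chromosome in which the Vwf gene drives green fluorescent protein. Neither mouse received a treatment. The comparison of the ages asks which genes HSCs express differently in an old animal. In all 61 young and 74 old cells were sequenced, of which 52 and 62 met the study's limits on reads, mitochondrial share and genes per cell. With 1 mouse per age the cells are not replicates of an age, so values are given with their spread over cells and no test between the ages was made.

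Hox genes encode homeodomain transcription factors and lie in clusters, in which gene order follows the order of expression along the body axis in the embryo. In blood, genes of the Hoxa and Hoxb clusters are active in stem and progenitor cells and are turned down as cells mature. Hox proteins bind DNA together with cofactors of the Pbx and Meis families, and trithorax-type complexes around Kmt2a keep Hox chromatin open. Hoxa9 is a regulator of HSC expansion and, with Meis1, of acute leukaemia. Forced expression of Hoxb4 expands HSCs in culture, and Hoxb5 has been used as a reporter of long-term HSCs.

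The Hoxa members lie on chromosome 6, on the minus strand of GRCm38, the assembly named mm10 in the labels. Hoxa3 spans chr6:52169059-52213067, Hoxa5 chr6:52201754-52204587, Hoxa7 chr6:52215623-52218573, Hoxa9 chr6:52223097-52227370 and Hoxa10 chr6:52231197-52240854. The Hoxb members lie on the plus strand of chromosome 11. There Hoxb6 spans chr11:96292814-96301569, Hoxb5 chr11:96303512-96306121, Hoxb3 chr11:96307101-96347930, Hoxb4 chr11:96318267-96321638 and Hoxb2 chr11:96351632-96354020. No strand setting is known for the counting, so reads of overlapping antisense transcripts cannot be told apart from those of the gene. Of the exon bases, 63.9% of Hoxb3 and 58.5% of Hoxb2 are shared with the antisense gene Hoxb3os. The shared part is 29.5% in Hoxa3, 28.8% in Hoxa7 and 5.28% in Hoxb5, and 0% in Hoxa5, Hoxa9, Hoxa10, Hoxb4 and Hoxb6. Values of Hoxb3, Hoxb2, Hoxa3 and Hoxa7 are therefore uncertain to that extent.

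The RefSeq promoter sequences (GRCm38.p6) of Hoxa9, Hoxa10 and Hoxb4 are shown because the first pair held the lowest values in old cells relative to young ones and Hoxb4 the largest ratio of summed reads in the other direction. Each is the 250 bases before an annotated start, 5′ to 3′ on the gene's strand, with matches to the motifs searched in capitals. The windows lie at chr6:52227371-52227620 (Hoxa9, minus strand), chr6:52240855-52241104 (Hoxa10, start 1, minus strand), chr6:52234940-52235189 (Hoxa10, start 2, minus strand) and chr11:96318017-96318266 (Hoxb4, plus strand), and hold no annotated exon.
Hoxa9: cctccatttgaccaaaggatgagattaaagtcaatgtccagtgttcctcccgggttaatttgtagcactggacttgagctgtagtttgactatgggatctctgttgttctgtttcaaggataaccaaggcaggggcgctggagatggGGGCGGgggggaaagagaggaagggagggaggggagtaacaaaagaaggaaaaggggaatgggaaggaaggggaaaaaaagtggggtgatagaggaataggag
Hoxa10, start 1: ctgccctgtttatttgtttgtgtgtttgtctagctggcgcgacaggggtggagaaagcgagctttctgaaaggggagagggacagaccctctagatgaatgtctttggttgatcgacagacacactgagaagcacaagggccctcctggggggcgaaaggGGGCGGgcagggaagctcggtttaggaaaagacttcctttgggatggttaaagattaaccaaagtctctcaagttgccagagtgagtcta
Hoxa10, start 2: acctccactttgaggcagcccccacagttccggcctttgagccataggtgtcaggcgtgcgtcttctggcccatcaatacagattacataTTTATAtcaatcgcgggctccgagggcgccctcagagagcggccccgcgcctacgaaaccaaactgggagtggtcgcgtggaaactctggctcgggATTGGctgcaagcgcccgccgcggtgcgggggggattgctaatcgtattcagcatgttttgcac
Hoxb4: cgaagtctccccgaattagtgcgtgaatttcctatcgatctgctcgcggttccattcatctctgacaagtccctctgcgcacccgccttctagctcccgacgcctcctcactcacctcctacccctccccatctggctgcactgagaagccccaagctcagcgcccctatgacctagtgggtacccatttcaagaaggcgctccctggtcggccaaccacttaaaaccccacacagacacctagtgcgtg

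Of the 5 motifs searched, each on both strands, the TATA box was taken as the letters TATAAA and the CCAAT box as those in its name. The E-box was taken as CACGTG. The GC box was taken as CCGCCC. A joint site of Hox and Pbx proteins was taken as TGATTNAT with N for any base. No match overlapped another. The Hoxa9 window holds 1 GC box and so does the first Hoxa10 window. The second Hoxa10 window holds 1 TATA box and 1 CCAAT box, both on the opposite strand. The Hoxb4 window holds none of the 5 motifs. Of all 32851 promoter windows of this length, 32.7% hold the GC box, 12.4% the TATA box, 33.8% the CCAAT box, 6.02% the E-box and 2.82% the Hox and Pbx letters. The Hoxa9 window has 49.6% G and C and 3 CpG dinucleotides, against medians of 52.4% and 6 over all windows, whereas the second Hoxa10 window has 59.2% and 20 and the Hoxb4 window 58% and 14. Windows were at hand for 6 of the 10 members.

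Read totals per cell were of the same order in both ages, with a median of 2798990 counted reads in young cells (273236–5688706) and 2116024 in old cells (276316–4086659). A median of 4116 and 3902 genes were expressed in each. Of the sorted phenotype, Kit (the c-Kit receptor) was found above the limit for an expressing cell, set at log2(CPM + 1) of 2, in 49 young and 61 old cells. Ly6a, which encodes Sca-1, was above it in 28 young and 43 old cells, with a difference in mean level of 1.55, and Slamf1, which encodes CD150, in 9 young and 15 old cells. Of 16 markers of B cells, T cells, granulocytes and macrophages, and erythroid cells, 7 have a row in the table. Of the erythroid markers among them, Hba-a1 was at 0 in every cell. Klf1 was expressed in 2 young cells, with a highest level of 8.08, and in 0 old cells. The summed level of the granulocyte and macrophage markers had a median of 0 in both ages, and Cd79b was expressed in 12 young and 16 old cells. Xist was above this limit in 50 young and 8 old cells, and at least 1 Y-linked gene in 2 young and 58 old cells. A sex-gene subset kept the 48 young cells with Xist and no Y-linked gene above the limit. It also kept the 50 old cells with a Y-linked gene and no Xist above the limit, so cells with neither were left out. Of the capture positions on the chips, 46 were used in both ages, so the cells of the ages were not all captured on the same chip. The paper describes the cells as coming from independent experiments. Age, mouse, the difference in sex-linked genes and any difference between capture chips or experiments therefore cannot be told apart. The part of chip or experiment in the values was not tested.

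Levels are given as log2(CPM + 1), CPM being counts scaled to a total of 1000000 counted reads in a cell, and a cell was called expressing above a level of 2. A difference is the mean over old cells minus the mean over young cells, and differences of at least 1 in size were called. The value after ± is the SD over cells, and shares carry a 95% exact (Clopper-Pearson) interval. Because each age is 1 mouse, all intervals cover counting error only. Reads carry no molecular identifiers, so intervals of summed reads concern reads and not molecules. Each member was under that limit in at least 26 of the 52 young and 45 of the 62 old cells and reached high levels in a few, as the plot of levels per cell shows.

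**Figure D1:**
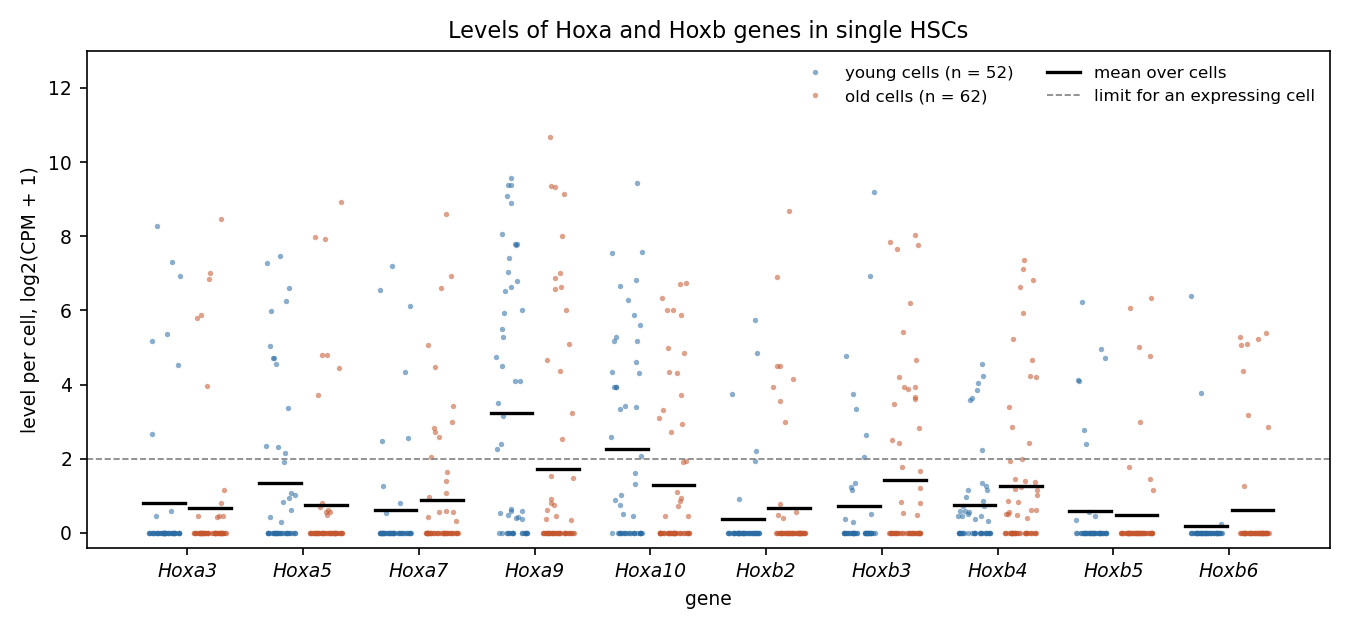
Level of each gene in each cell, as log2(CPM + 1), in 52 young (blue) and 62 old (orange) HSCs, with black lines for the mean over cells and a dashed line at the limit of 2 for an expressing cell. For 9 of the 10 genes most cells of both ages sit under the limit, for Hoxa9 in young cells 26 of 52 do, and the mean of Hoxa9 is 3.22 in young and 1.72 in old cells.

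Hoxa9 was the most widely expressed member in young HSCs. It was expressed in 26 of 52 young cells (50%, interval 35.8–64.2%) and in 15 of 62 old cells (24.2%, 14.2–36.7%). The lowest, median and highest levels were 0, 1.45 and 9.58 in young cells and 0, 0 and 10.67 in old cells, so that the ranges overlapped in full and the highest single value came from an old cell. The mean level was 3.22 ± 3.47 in young and 1.72 ± 3.04 in old cells, a difference of -1.50. Hoxa9 was the one member called. Over the 9374 genes that 10% or more of the cells expressed, 6.98% were lower in old cells by at least 1 and 6.24% higher, 13.2% in either direction. Hoxa9 ranked 181 from the most lowered of them. Among the cells that expressed Hoxa9 the level was 6.29 ± 2.22 in young and 6.63 ± 2.38 in old cells, and the medians of 6.57 and 6.62 were close. The ages thus differed in the share of expressing cells, while the level within them overlapped widely.

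The reads of Hoxa9 summed over cells came to 12411 (95% exact Poisson interval 12194–12631) in young and 4407 (4278–4539) in old cells, a log2 ratio of -1.28 of reads per counted read. They were not spread evenly, since the young cell at capture position C5 held 2262 reads, 18.2% of the young sum, and the old cell at C9 held 1219, 27.7% of the old sum. After each cell was thinned to 250000 reads, Hoxa9 was above the limit in 51.9% of the young and 25.8% of the old cells. The difference was -1.12 over all 61 and 74 cells and -1.07 in the sex-gene subset.

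Hoxa10, the neighbour of Hoxa9 on the 5′ side of the cluster, had a like pattern at a lower level. It was expressed in 22 young cells (42.3%, 28.7–56.8%) and 15 old cells (24.2%, 14.2–36.7%), with lowest, median and highest levels of 0, 0.83 and 9.44 in young and 0, 0 and 6.73 in old cells. The groups overlapped, although the top of the young range lay above that of the old one. Its mean was 2.27 ± 2.70 in young and 1.30 ± 2.14 in old cells, a difference of -0.97 and thus just short of a call. It passed the size of a call in the sex-gene subset (-1.08), in cells with at least 1000000 counted reads (-1.27) and after thinning to 250000 reads (-1.19). The difference was -0.63 over all 61 and 74 cells and -0.64 in cells passing other published criteria. In expressing cells the level was 5.06 ± 1.81 in young and 4.80 ± 1.42 in old cells. The sums were 4481 and 827 reads, a log2 ratio of -2.23 of reads per counted read, with 1476 of the young reads in the cell at C12, which is 32.9%. The thinned shares were 50% and 25.8%.

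Hoxa5, Hoxa3 and Hoxa7 lie further towards the 3′ side of the Hoxa cluster, and each was expressed by at most 25% of the cells of an age. Hoxa5, a gene known for its part in lung and axial development, was expressed in 13 young (25%, 14.03–38.9%) and 7 old cells (11.3%, 4.66–21.9%), with means of 1.35 ± 2.25 and 0.75 ± 2.04 and a difference of -0.60. Its median was 0 in both ages and its highest level 7.48 in young and 8.93 in old cells. The sums were 1416 and 1010 reads, a log2 ratio of -0.28 of reads per counted read. The mean CPM per kb of exon was 7.16 in young and 9.20 in old cells, but 5.09 in old cells without the cell at H1, which had 289282 counted reads in all. In expressing cells the level had a median of 4.72 in young and 4.81 in old cells, and a mean of 4.83 ± 1.86 and 6.09 ± 2.11.

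Hoxa3, required in the embryo for the thymus and parathyroid, was expressed in 7 young (13.5%, 5.59–25.8%) and 6 old cells (9.68%, 3.63–19.9%). Its means were 0.80 ± 2.08 and 0.67 ± 1.93, and the difference of -0.12 changed to 0.21 over all 61 and 74 cells. No direction can therefore be given for Hoxa3. Hoxa7 was the 1 Hoxa member with a higher mean in old cells, at 0.61 ± 1.70 in young and 0.90 ± 1.88 in old cells, a difference of 0.29. It was expressed in 6 young (11.5%, 4.35–23.4%) and 11 old cells (17.7%, 9.20–29.5%). Of its 1551 reads in old cells, 1304 (84.1%) came from the cell at G10, against 1058 reads in all young cells.

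The Hoxb members were each expressed in fewer cells than Hoxa9 and Hoxa10 in the young mouse, and 4 of the 5 had a higher mean in the old mouse without reaching a call. Over all 15014 genes with a read, 46.2% had a higher and 53.8% a lower mean in old cells. Hoxb3, which shares most of its exon bases with an antisense gene, was expressed in 7 young (13.5%, 5.59–25.8%) and 17 old cells (27.4%, 16.9–40.2%). The lowest, median and highest levels were 0, 0 and 9.19 in young and 0, 0 and 8.03 in old cells. Its means were 0.72 ± 1.82 and 1.44 ± 2.35, and the difference of 0.72 was the largest among the Hoxb members. The level in expressing cells was 4.67 ± 2.55 in young and 4.83 ± 1.95 in old cells. The sums of 2548 and 3091 reads differed less than the shares did, since the young cell at C5 held 1728 reads, 67.8% of the young sum.

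Hoxb4 was expressed in 7 young (13.5%, 5.59–25.8%) and 12 old cells (19.4%, 10.4–31.4%), with means of 0.74 ± 1.28 and 1.28 ± 2.07 and a difference of 0.53. The highest level was 4.56 in young and 7.37 in old cells, and the median was 0 in both. The summed reads were 255 (225–288) in young and 1501 (1426–1579) in old cells, a log2 ratio of 2.77 of reads per counted read. This was the largest ratio among the members, and the highest old cell held 24.2% of the old sum. Within expressing cells Hoxb4 had a level of 3.74 ± 0.74 in young and 5.07 ± 1.71 in old cells. At least 1 read was found in 24 young and 30 old cells, where the median number of reads was 2 and 3, so much of its detection lay under the limit for an expressing cell.

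Hoxb2, a hindbrain patterning gene, and Hoxb6 were rare in both ages. Hoxb2 was expressed in 4 young (7.69%, 2.14–18.5%) and 8 old cells (12.9%, 5.74–23.9%), with means of 0.37 ± 1.19 and 0.67 ± 1.77. The old cell at G6 held 496 of its 768 reads (64.6%). Hoxb6 was expressed in 2 young (3.85%, 0.47–13.2%) and 8 old cells (12.9%, 5.74–23.9%), with means of 0.20 ± 1.02 and 0.61 ± 1.58, and was the 1 member under 10% of all cells. Of its 264 young reads 235 came from the cell at G5, while the highest old cell held 23.1% of 562 reads. Hoxb5 was the 1 Hoxb member with a lower mean in old cells, at 0.59 ± 1.505 and 0.48 ± 1.44, and its difference of -0.11 was small against the spread over cells. It was expressed in 7 young (13.5%, 5.59–25.8%) and 5 old cells (8.06%, 2.67–17.8%).

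**Figure D2:**
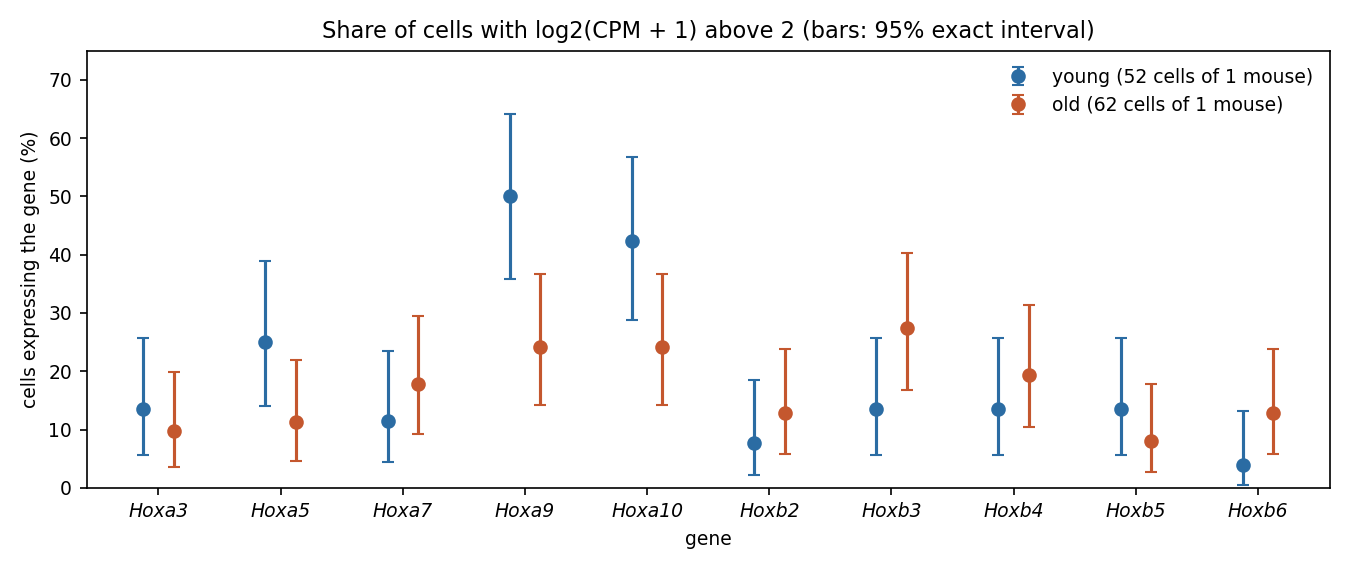
Share of young (blue) and old (orange) cells expressing each gene, in percent of 52 and 62 cells, with bars for the 95% exact interval. The share is higher in young cells for Hoxa3, Hoxa5, Hoxa9, Hoxa10 and Hoxb5, and the intervals of the ages overlap for every gene, narrowly for Hoxa9.

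Read by gene order, the differences of the Hoxa members had a median of -0.60 and those of the Hoxb members 0.41, with 1 of 5 and 4 of 5 higher in old cells. Over all 10 members the median was 0.09 with 5 higher and 5 lower, and over all genes with a read it was -0.02. Of the members, 9 of 10 passed the limit of 10% of cells, and 1 of these was called, beside 13.2% of all such genes. The share of members called is thus near that of all genes. The lowest differences lay at Hoxa9 and Hoxa10, the members with the highest numbers in their cluster. The Hoxa and Hoxb genes outside the member list had mean levels of at most 0.68 (Hoxb9 in old cells). A difference of 1 was therefore out of their reach, and they are no contrast to Hoxa9 and Hoxa10.

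**Figure D3:**
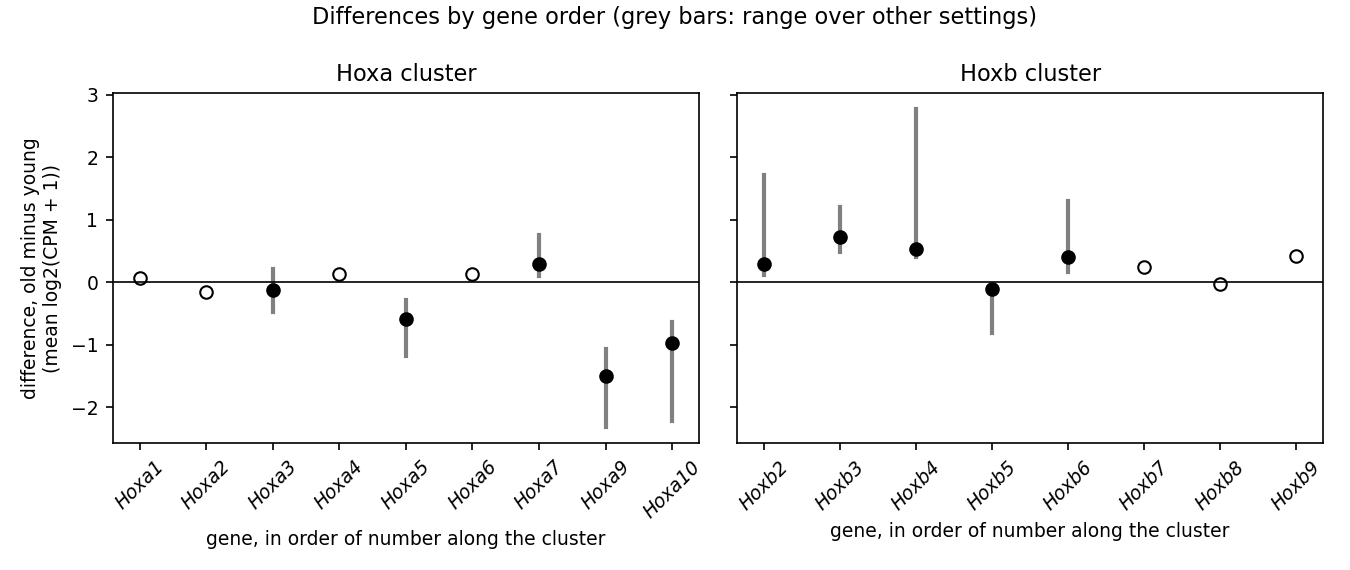
Difference of the mean log2(CPM + 1), old minus young, for the Hoxa (left) and Hoxb (right) genes of the count table, in order of their numbers, with filled points for the 10 members, open points for other genes of the clusters and grey bars for the range over the other settings tried. Hoxa9 is lowest at -1.50, and the bar of Hoxa3 spans 0.

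Levels of different genes were compared per kb of exon. In young cells Hoxa9 had the highest mean, 29.5 ± 58.6 CPM per kb, followed by Hoxa10 at 10.5 ± 32.6, Hoxa5 at 7.16 ± 19.4, Hoxa3 at 5.13 ± 19.4, Hoxb3 at 4.18 ± 23.4 and Hoxa7 at 3.24 ± 12.7. Hoxb5, Hoxb6, Hoxb2 and Hoxb4 had 1.76 ± 6.23, 1.39 ± 8.75, 1.18 ± 5.09 and 0.81 ± 1.97 CPM per kb. In old cells Hoxa9 was again first, at 21.7 ± 75.6 CPM per kb, followed by Hoxa5 at 9.20 ± 39.9, Hoxb2 at 6.15 ± 33.04, Hoxa7 at 5.65 ± 26.2, Hoxb3 at 5.32 ± 16.04, Hoxa3 at 4.50 ± 19.1 and Hoxb4 at 4.45 ± 12.8. Hoxa10 came eighth with 3.19 ± 7.74 CPM per kb, before Hoxb6 at 2.65 ± 7.75 and Hoxb5 at 1.83 ± 7.30. The SD exceeded the mean for each gene in each age, so no neighbours in either order differ beyond their spread. Without the cell of highest CPM for a gene and age, a choice made after seeing the data, the mean fell by more than 1.5 times for 7 of 10 genes in young and 6 of 10 in old cells. In old cells Hoxa9 was then at 13.7 (without the cell at A4), Hoxa5 at 5.09 (without H1) and Hoxb2 at 2.13 CPM per kb (without G6). In young cells Hoxa10 was at 6.40 (without C12), Hoxb3 at 1.01 (without C5) and Hoxb6 at 0.19 CPM per kb (without G5). Hoxa9 was first in both ages with and without these cells. The member with the most CPM per kb in a cell was Hoxa9 in 17 of the 45 young cells that expressed any member and in 9 of 46 such old cells. Hoxa10 led in 9 young and 3 old cells, Hoxb3 in 2 and 10, and Hoxb4 in 3 and 7.

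Counted by cell, HSCs expressed few members at once. The number per cell had a median of 2 and a mean of 1.94 ± 1.42 in young cells (range 0–6), and a median of 1.5 and a mean of 1.68 ± 1.42 in old cells (range 0–5). At least 1 member was found in 45 young (86.5%, 74.2–94.4%) and 46 old cells (74.2%, 61.5–84.5%). The clusters differed in direction. Any Hoxa member was expressed in 41 young (78.8%, 65.3–88.9%) and 30 old cells (48.4%, 35.5–61.4%), and these counting intervals did not overlap. They are no test between the ages, since they cover counting error among cells of a single mouse. The cluster values were added after seeing the data, and no share over other gene sets was computed for comparison. Any Hoxb member was expressed in 21 young (40.4%, 27.01–54.9%) and 35 old cells (56.5%, 43.3–69.01%), with overlapping intervals. Hoxa members alone were found in 24 young (46.2%, 32.2–60.5%) and 11 old cells (17.7%, 9.20–29.5%), and Hoxb members alone in 4 young (7.69%, 2.14–18.5%) and 16 old cells (25.8%, 15.5–38.5%). Both clusters were used in 17 young (32.7%) and 19 old cells (30.6%), and no member in 7 (13.5%) and 16 (25.8%).

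The Hoxa shares depended on which cells were used. Among the 21 cells outside the study's limits the order was the other way, with any Hoxa member in 3 of the 9 young (33.3%, 7.49–70.1%) and 10 of the 12 old cells (83.3%, 51.6–97.9%). Over all 61 and 74 cells the shares were 72.1% (59.2–82.9%) and 54.1% (42.1–65.7%), and the intervals overlapped. With each cell thinned to 250000 reads they were 84.6% (71.9–93.1%) and 58.1% (44.8–70.5%), and in the sex-gene subset 77.1% (62.7–87.97%) and 46% (31.8–60.7%). The summed Hoxa level (log2 of the summed CPM plus 1) had a median of 5.95 in young and 2.05 in old cells, and the summed Hoxb level 0.92 and 3.16. Both sums reached from 0 to above 8 in each age, so that the ranges of the ages overlapped.

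**Figure D4:**
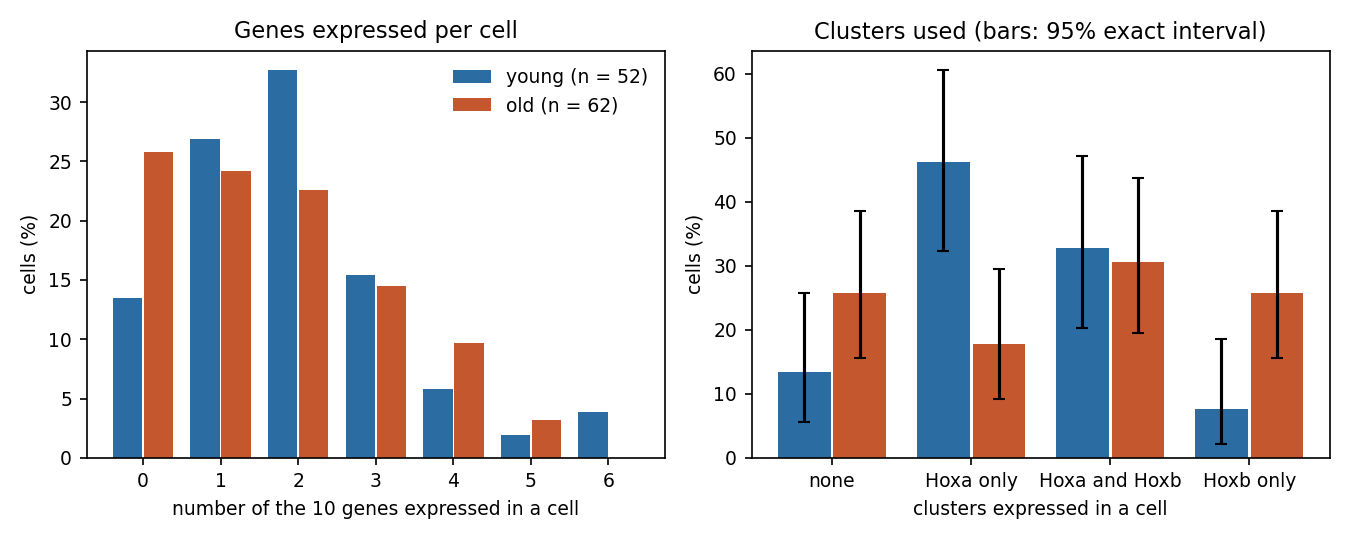
Left, percent of young (blue) and old (orange) cells by the number of the 10 genes they expressed, and right, percent of cells that expressed none, Hoxa members only, members of both clusters or Hoxb members only, with bars for the 95% exact interval. Cells with Hoxa members alone made up 46.2% of the young and 17.7% of the old cells, and those with Hoxb members alone 7.69% and 25.8%.

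**Figure D5:**
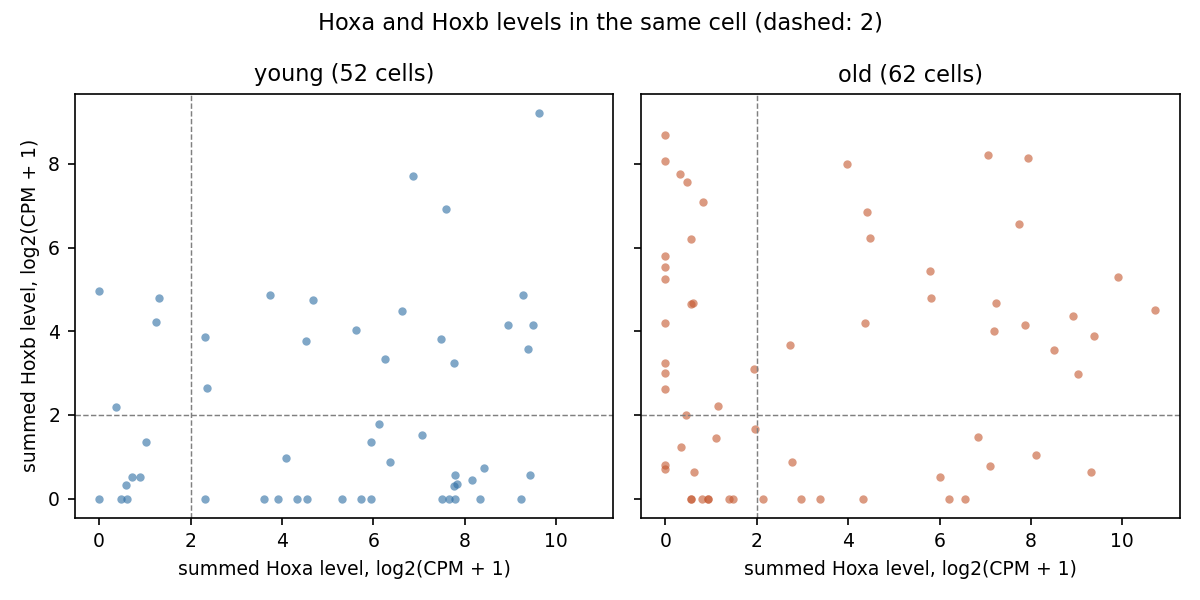
Summed Hoxb level against summed Hoxa level, both log2(CPM + 1), in each of 52 young (left) and 62 old (right) cells, with dashed lines at 2. Old cells fill the upper left area of high Hoxb and low Hoxa levels more than young cells do, and cells with both clusters high occur in each age.

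The members varied largely apart from one another across cells. Over the 45 pairs the median Spearman correlation of levels was 0.11 across the 52 young and 0.01 across the 62 old cells, with ranges from -0.23 to 0.44 and from -0.26 to 0.33, and 0 pairs were above 0.2 in both ages. Cells of an age share the mouse, and in sparse counts such values describe these cells only. The neighbours Hoxa9 and Hoxa10 were expressed together in 13 young cells (of 26 and 22 expressing each) and in 7 old cells (of 15 and 15), with correlations of 0.05 and 0.25. Hoxb3 and Hoxb4 were expressed together in 1 young and 5 old cells. Over 9365 other genes that 10% or more of the cells expressed, those whose levels were most like the summed member level, by the mean of the young and old Spearman correlations, were Mtmr3 (0.41 in young and 0.24 in old cells), Gng2 (0.30 and 0.36), Nelfa (0.21 and 0.40), Slc25a44 (0.32 and 0.29) and Rfc4 (0.19 and 0.41). The highest mean was 0.33, and 0 genes were above 0.3 in both ages.

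Of 29 other Hox genes looked for, 11 have a row, of which Hoxd10 was at 0 in these cells. Of the 10 with a read, 6 were higher and 4 lower in old cells, with a median difference of 0.06 and 0 past a difference of 1. Only 2 of the 10, Hoxc8 and Hoxd11, were expressed by 10% or more of the cells, so the background of 13.2% is no measure for them. Next to the members in the Hoxb cluster, Hoxb7 was expressed in 0 young and 3 old cells and Hoxb8 in 1 young and 0 old cells. Hoxb9 was expressed in 0 of 52 young cells, which allows a share of up to 5.77% by a floor of 3 cells and of 6.85% by the exact interval, and in 6 of 62 old cells.

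Of 11 Hox cofactors, 10 have a row, 6 higher and 4 lower in old cells with a median difference of 0.14. Meis1, the partner of Hoxa9 in leukaemia, was expressed in all 52 young and all 62 old cells, at 9.74 ± 1.44 and 9.96 ± 2.06, and its difference of 0.22 changed to -0.11 over all 61 and 74 cells. Pbx3, a DNA-binding partner of Hox proteins, was past the size of a call and was expressed in 3 young and 19 old cells, with means of 0.35 ± 1.25 and 1.93 ± 3.14 and a difference of 1.58. The background for genes higher by at least 1 was 6.24%. Tgif1 and Meis2 had differences of 0.24 each.

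Of 18 genes known to act upstream of Hox genes, 15 have a row, 4 higher and 11 lower in old cells with a median difference of -0.28. All 15 were expressed by 10% or more of the cells, and 1 of the 15 was called, beside 13.2% of all such genes. This was Dpy30, a core subunit of the Kmt2 complexes that methylate histone H3, with 4.67 ± 3.04 in young and 2.97 ± 3.09 in old cells, a difference of -1.71. Kmt2a, the trithorax-type methyltransferase that keeps Hoxa9 active, was expressed in 41 young and 50 old cells at 5.92 ± 3.40 and 6.03 ± 3.03. Its difference of 0.10 changed to -0.50 over all 61 and 74 cells. Its fusion partner Mllt3 had a difference of 0.23, which changed to -0.58 in the sex-gene subset. The methyltransferase Ash1l and the elongation factor subunit Aff4 had -0.30 and -0.13.

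Cell cycle genes differed between the ages in these cells and stand beside the Hoxa values for that reason. All 8 of 8 cell cycle genes were lower in old cells, as were 53.8% of all genes with a read, and their median difference was -1.55. Of these genes 7 were called, beside 6.98% of genes that 10% or more of the cells expressed, a limit that the called Aurka did not reach. Among the called were Mki67 (3.46 in young and 1.86 in old cells), Top2a (3.25 and 1.27) and Cdk1 (2.53 and 0.76). The paper had already reported Ccna2, Ccnb1, Cdk1 and Cdc25c as more frequent in the young cells, so their direction was known beforehand. Their summed level ranged from 2.13 to 12.8 in young and from 1.89 to 12.01 in old cells. Across cells the Spearman correlation of this sum with Hoxa9 was 0.28 in 52 young and 0.14 in 62 old cells, and with Hoxa10 0.31 and 0.03. The 4 megakaryocyte and platelet markers had a summed level with a median of 4.78 (0–10.6) in young and 6.77 (0–12.03) in old cells. Of these markers 2 had a higher and 2 a lower mean level in old cells, and 0 were called. Vwf had the highest mean CPM of them, 108 in young and 196 in old cells. The marker sum correlated with the summed member level at 0.02 in young and 0.11 in old cells. Among the 10 members its correlation was highest with Hoxb3, at 0.35 and 0.24, and lowest with Hoxa3, at -0.26 and -0.24. With Hoxb4 it was 0.22 and 0.12, with Hoxb5 -0.08 and -0.07 and with Hoxb6 -0.14 and 0.22. The summed member level correlated with the total of counted reads at -0.18 in young and -0.34 in old cells. The part of cell cycle, marker genes and depth in the differences between the ages was not tested.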

How the data were processed

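Single HSCs were captured on C1 chips, their polyadenylated RNA was amplified with SMARTer chemistry, and Nextera XT libraries were sequenced as single 51-base reads. The authors mapped reads with TopHat2 2.0.10 to mm10, keeping 1 alignment per read, and deposited counts per RefSeq gene and cell from rpkmforgenes, without normalization. No strand setting is given in the sources used here. CPM was computed from each cell's total, and levels, differences and calls are as defined in the report. The main values used the 114 cells that pass the study's 3 limits, taken from its list of cells. Genes that 10% or more of these expressed formed the background of calls. Each age is 1 mouse, so no test between ages and no count model was run.

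Members and gene lists were chosen with earlier results of these data known. Named were all 10 members, of each other list at most the 5 genes with the highest levels and any past a difference of 1, and the 5 genes most like the summed member level. Hoxb7, Hoxb8, Hoxb9, Cd79b, Hba-a1, Klf1, Vwf and Slamf1 were added after their values were seen. Some genes of these lists are not reported here.

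Alternatives covered the cells used, read depth, a pseudocount of 0.1 CPM in place of 1, ratios of summed counts, scaling by edgeR 4.0.16 (TMMwsp) or by DESeq2 1.42.0 (poscounts) and other limits for an expressing cell. The sex-gene subset and the values for each cluster were added after seeing the data. The steps ran in R 4.3.3 and in Python 3.11.15 with scipy 1.17.1, numpy 2.4.6 and pandas 2.3.3, and were tested on simulated counts. Exon lengths, positions and promoters come from RefSeq on GRCm38.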

Additional observations from a re-analysis of the deposited data

How the results depend on the processing

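Of 100 differences of single members under other settings, taken as folds (2 to the power of the difference), 92 changed by less than 1.5 times and 8 by more, and the sign changed for Hoxa3 alone, to 0.21 over all 61 and 74 cells and 0.18 in cells passing other published criteria. Hoxa9 stayed past a difference of 1, from -2.32 (pseudocount of 0.1 CPM) to -1.07. As log2 ratios of summed counts, the median of the Hoxb members was 1.30. Counting any cell with 1 read as expressing gave a median of 3 members per young cell and also 3 per old cell. Any Hoxa member was then found in 96.2% of the young and 82.3% of the old cells, and any Hoxb member in 69.2% and 79.0%. Above a level of 4, the median was 1 member per young cell and any Hoxb member was found in 23.1% and 38.7%. The cause of these shifts was not tested. Low counts limit Hoxb4, of which the cells with a read held a median of 2 reads in young and 3 in old cells. No paired analysis was possible because each age is 1 mouse and cells carry no pairing between ages, and for the same reason no replicate could be left out.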

Other observations

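Among Hox genes outside the 10 members, Hoxc8 and Hoxd11 were detected in most cells but with few reads. Hoxc8 had at least 1 read in 49 of 52 young and 52 of 62 old cells, with at most 12 and 10 reads in a cell, and was expressed in 8 and 5 cells. Hoxd11 had a read in 44 young and 43 old cells, with at most 25 and 44 reads, and was expressed in 5 and 11 cells. Hoxb9 had a read in 24 young and 24 old cells, with at most 7 reads in a young cell, whereas 1 old cell held 1316 of the 1579 old reads. Hoxa9, by contrast, had a read in 34 young and 24 old cells with up to 2262 and 1219 reads, and a median of 120 and 24.5 in the cells where it was read. The median number of reads in cells with a read was 4 and 2 for Hoxc8.

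In the 21 cells outside the study's limits, Hoxa3 was expressed in 0 of 9 young cells, which allows a share of up to 33.3% by a floor of 3 cells and of 33.6% by the exact interval, and in 4 of 12 old cells. In these cells 7 members had more reads in old than in young cells, among them Hoxa3 with 3 young and 1976 old reads, Hoxa7 with 115 and 3134, Hoxa9 with 7 and 3353 (3296 of them in 1 old cell) and Hoxa10 with 6 and 871. The reads of Hoxb3, Hoxb4 and Hoxb5 came to 85 and 422, 5 and 43, and 2 and 106. The other way round were Hoxa5 with 1924 young and 1371 old reads, Hoxb6 with 779 and 72, and Hoxb2 with 145 and 0. Of these young reads, 1811 of Hoxa5, all 779 of Hoxb6 and 144 of Hoxb2 came from 1 cell each. All these sums are raw reads over 9 young and 12 old cells, not scaled to depth.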
